A study of Rattus norvegicus with 2 samples.

Results

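The insulin-like growth factor 1 gene, Igf1, and the 7 genes of its binding proteins, Igfbp1 to Igfbp7, were taken by their symbols from the platform annotation. All 8 symbols were found among 16592 probe sets that carry a gene symbol, each with 1 probe set. These were 24482_at for Igf1 and, in the order Igfbp1 to Igfbp7, 25685_at, 25662_at, 24484_at, 360622_at, 25285_at, 25641_at and 289560_at. Their levels were read on 2 Affymetrix arrays of neonatal rat ventricular myocytes, heart muscle cells taken from pups 1 to 2 days old. After a recovery of 24 hours in medium with 10% fetal bovine serum, the cells were moved to low-serum medium with 0.5x Nutridoma, a serum substitute, and an adenovirus then delivered a short hairpin RNA (shRNA). In the first group the shRNA targeted lacZ, a bacterial gene absent from rat cells, as the control, and in the second it targeted Mef2d, which encodes a MEF2 family muscle transcription factor. RNA was collected 3 days after transduction. No other treatment or genotype was named, and both groups carried an adenovirus.

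Each group had 1 array. The design text describes a pool of 6 biological replicates on each array, whereas the extraction protocol speaks of 3 biological replicates per condition and calls the cells myotubes. With 1 array per group there is no replicate error, no test and no p-value, so precision is limited by how few arrays there are. All levels below are log2 RMA values, in which 1 unit is a 2-fold step. The arrays are called lacZ-labelled and Mef2d-labelled after the target named in the labels, and a difference is the Mef2d-labelled value minus the lacZ-labelled one.

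IGF1 is a secreted growth factor that signals through the IGF1 receptor tyrosine kinase to the PI3K-AKT and MAPK pathways, and in heart muscle it is known for promoting growth and survival of myocytes. IGF binding proteins 1 to 6 are secreted proteins that hold IGF1 and IGF2 with high affinity. They lengthen the life of the ligands, keep them from the receptor or deliver them to cells, and proteases release the ligand by cutting them. IGFBP7 is a related protein with low affinity for the IGFs.

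The targeted gene went against the labels. The signal of Mef2d itself (probe set 81518_at) was 8.22 on the lacZ-labelled array and 8.94 on the Mef2d-labelled array, a difference of 0.71, so it was higher on the array whose label names it as the target. Where its probes lie relative to the shRNA site was not examined. Directions are therefore given by label only, and an exchange of the labels would reverse each of them. Cardiac muscle markers were bright on both arrays. All 8 that were listed, among them Tnnt2, Actn2 and Nppa, had levels of at least 7.31. Fibroblast markers were bright too, with levels from 6.44 for Tcf21 to 12.16 for Col1a1 among the 10 listed. The cardiac levels therefore do not show how pure the cells were. A gene was kept when its mean over both arrays reached the 30th percentile of named genes, a log2 level of 4.85, which left 11614 genes.

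No member differed by 1.5-fold, or 0.58 on the log2 scale, in either direction. On the Mef2d-labelled array the shares of genes past this threshold were 0.844% higher and 0.534% lower among the 11614 kept, and 0.735% and 0.536% over all 16592 named genes. Beside shares this small a count of 0 among 8 members is no result about them. Igf1, Igfbp3 and Igfbp4 had the largest differences among the members, and all of them were lower on the Mef2d-labelled array, while the differences of the others were no larger than 0.18 in size. In all, 6 members had values below 0 and 2 above. Over all named genes 53.3% lay below 0, and 51.7% of those past the level filter. The median difference of the 8 members was -0.13, beside -0.01 over all named genes. For the 7 members past the level filter, the main setting, it was -0.08, beside -0.01 over all genes past the filter.

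**Figure D1:**
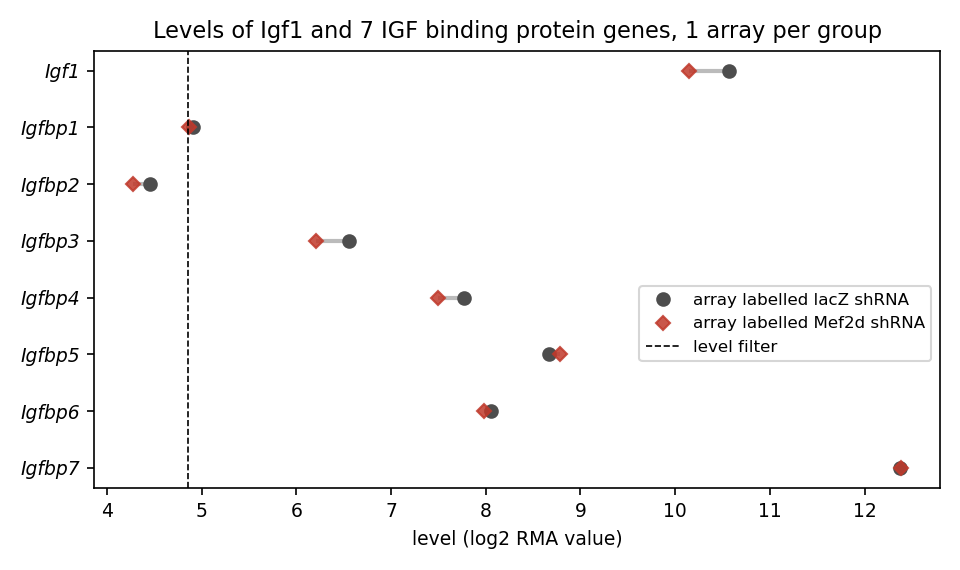
Levels of Igf1 and Igfbp1 to Igfbp7 (horizontal axis, log2 RMA value) on the lacZ-labelled array (grey circles) and the Mef2d-labelled array (red diamonds), 1 array each; the dashed line is the level filter at 4.85. The red diamond lies to the left for 6 genes and furthest to the left of its circle for Igf1 (10.57 and 10.15); only the 2 points of 1 gene can be compared, since probe sets differ in brightness.

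The stretches of DNA around the annotated starts are shown for the 3 members with the largest negative differences and for Igfbp5, the member with the largest positive one, because the study perturbs a DNA-binding factor. Each runs from 250 bases before the start to 50 after it, on the strand of the gene, as given by RefSeq for the rat build GRCr8. The Igf1 window lies at chr7:24172282-24172581 on the plus strand and that of Igfbp3 at chr14:86277895-86278194 on the minus strand. The window of Igfbp4 lies at chr10:84491221-84491520 on the plus strand, and that of Igfbp5 at chr9:81914138-81914437 on the minus strand. Capitals mark matches to the E-box CANNTG, where N is any base, or to the TATA box letters TATAAA.
Igf1 promoter: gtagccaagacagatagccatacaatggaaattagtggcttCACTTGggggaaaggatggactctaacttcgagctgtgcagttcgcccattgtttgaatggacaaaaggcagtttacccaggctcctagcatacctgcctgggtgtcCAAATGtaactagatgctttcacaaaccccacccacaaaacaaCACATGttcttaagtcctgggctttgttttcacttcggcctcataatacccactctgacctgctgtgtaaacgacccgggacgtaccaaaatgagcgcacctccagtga
Igfbp3 promoter: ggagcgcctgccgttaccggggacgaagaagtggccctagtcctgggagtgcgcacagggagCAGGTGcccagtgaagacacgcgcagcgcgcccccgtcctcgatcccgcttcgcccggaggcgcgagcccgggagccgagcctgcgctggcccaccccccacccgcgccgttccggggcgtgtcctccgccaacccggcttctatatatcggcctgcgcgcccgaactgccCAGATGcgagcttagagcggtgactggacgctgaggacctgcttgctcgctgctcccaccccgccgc
Igfbp4 promoter: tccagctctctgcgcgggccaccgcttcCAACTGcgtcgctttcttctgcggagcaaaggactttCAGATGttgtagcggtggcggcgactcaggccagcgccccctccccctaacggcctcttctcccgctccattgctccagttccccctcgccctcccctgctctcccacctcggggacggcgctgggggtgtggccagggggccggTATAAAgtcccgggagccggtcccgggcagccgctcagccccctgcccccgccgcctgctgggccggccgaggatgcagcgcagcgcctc
Igfbp5 promoter: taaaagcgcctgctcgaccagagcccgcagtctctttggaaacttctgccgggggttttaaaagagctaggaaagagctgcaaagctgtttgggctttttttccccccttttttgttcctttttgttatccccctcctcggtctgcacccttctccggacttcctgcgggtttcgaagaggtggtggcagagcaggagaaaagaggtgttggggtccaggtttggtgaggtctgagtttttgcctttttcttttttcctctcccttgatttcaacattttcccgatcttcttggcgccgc

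A MEF2 consensus site, searched on both strands, was found in none of the 8 member windows, and 3.29% of 33469 promoter windows of the same length held one. This says only that the letters are absent from these windows. The E-box, the motif of basic helix-loop-helix factors, was present in 7 of the 8, beside 72.1% of all windows. Igf1 held 3 E-boxes, Igfbp3 and Igfbp4 held 2 each, and Igfbp5 held none. Of the members not printed Igfbp6, with a difference of -0.08, held the most, at 4. Igfbp2 held 3, and Igfbp1 and Igfbp7 held 1 each. A link between these counts and the differences was not tested. Igfbp4 was the member with the letters TATAAA, which begin 40 bases before its start, and 14.2% of all windows held them on either strand. The GC box letters GGGCGG were found in Igfbp2 and Igfbp7 (2 of 8 members, beside 33.1% of all windows), and no match of one motif overlapped a match of another in the windows printed. The windows of Igfbp3 and Igfbp4 were rich in G and C, at 71.7% and 71.0%, whereas Igf1 had 48.3% and Igfbp5 50.7%, and the median of all windows was 51.7%. The members with the largest negative differences thus had starts of unlike base composition.

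Igf1, the ligand of the group, had a level of 10.57 on the lacZ-labelled array and 10.15 on the Mef2d-labelled array. It was 1.34-fold lower on the latter, a difference of -0.43, which was the largest in size among the members. As a yardstick for the scatter, the median absolute deviation of the differences, scaled to an SD, was taken among genes of similar level and is called the robust SD. It ranged from 0.11 to 0.21 over 20 bins of level, holds both noise and true differences, and does not stand for an error between replicates. Igf1 lay 2.93 robust SDs below the centre of its bin, where the robust SD was 0.14. Of the 11614 genes, 203 had a difference at least as low, Igf1 included. At a looser threshold of 1.3-fold Igf1 was the 1 member counted as lower and no member was counted as higher, where 2.47% of genes were as much lower and 3.51% as much higher.

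The mean signal of Igf1 was at percentile 96.2 of named probe sets, a rank of probe brightness. Ventricular preparations can hold fibroblasts, smooth muscle cells, endothelial cells and macrophages, several of which are known to make IGF1. Fewer cells of a type and less RNA per cell cannot be told apart in such a culture. Macrophage and leukocyte markers had a summed linear signal of 1121 on the lacZ-labelled array and 997 on the other, a ratio of 0.89. That sum mostly follows Lyz2, by far the brightest of them, with log2 levels of 9.28 and 8.94, and is not a trait of the whole list. The median difference of the 6 markers was -0.10. Of the 6 markers 4 were below 0, with Lyz2 at -0.34 and Tyrobp, at 0.24, at the ends of the range past the level filter. Fibroblast markers summed to 18235 and 17919 (ratio 0.98), and 6 of 10 were below 0, from Pdgfra at -0.23 to Dcn at 0.10.

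In the other marker lists Myh6 and Pecam1 had negative differences at least as large as that of Igf1, while the summed signals had ratios near 1.00. Smooth muscle and pericyte markers summed to 6330 and 6063 (ratio 0.96), with 3 of 5 below 0, from Tagln at -0.22 to Rgs5 at 0.08. Endothelial markers summed to 169 and 162 (ratio 0.96). Of the 5 endothelial markers matched 3 were below 0, and the median was -0.18. Under the level filter were 4 of them, namely Pecam1 at -0.44, Tie1 at -0.26, Cdh5 at -0.18 and Vwf at 0.04, all named after their values were seen, and Tek, past the filter, had a difference of 0.10. No marker had a level of 0, which RMA does not give. Cardiac muscle markers summed to 19163 and 19122 (ratio 1.00), with 4 of 8 below 0, from Myh6 at -0.46 to Tnni3 at 0.36, which lay 2.89 robust SDs below and 2.44 above the centres of their bins. The part of these cell types in the Igf1 difference was not tested.

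**Figure D2:**
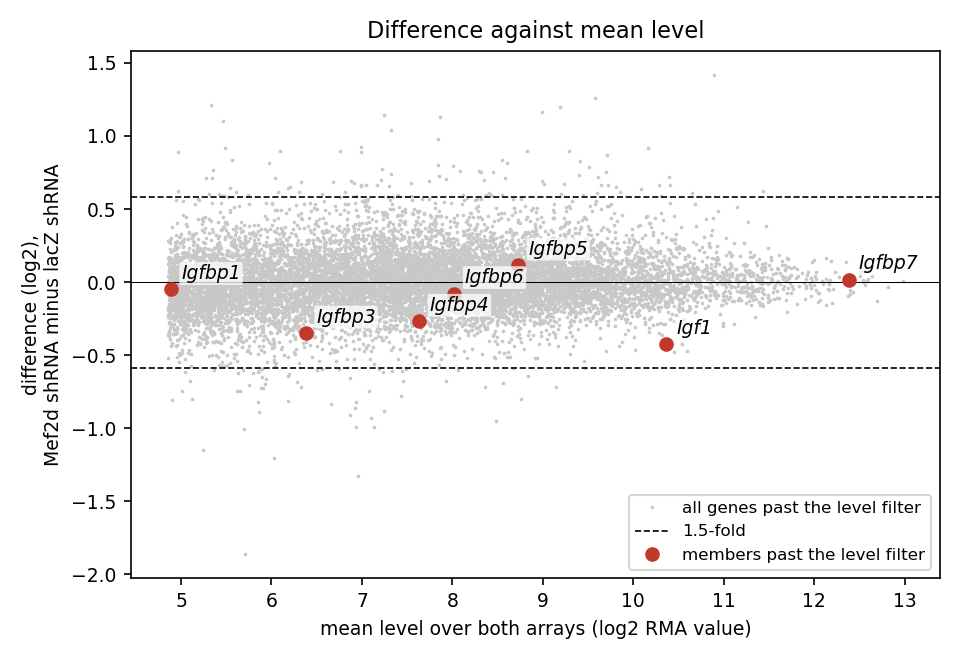
Difference between the arrays (vertical axis, log2, Mef2d shRNA minus lacZ shRNA) against mean level (horizontal axis, log2 RMA value) for the 11614 genes past the level filter (grey) and the 7 members among them (red); dashed lines mark 1.5-fold. Igf1 lies at the lower edge of the grey cloud at its level, Igfbp3 and Igfbp4 lie below 0 inside it, and Igfbp5, Igfbp6, Igfbp7 and Igfbp1 lie near 0.

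IGFBP3 and IGFBP5 are the binding proteins that can form a ternary complex with an IGF and the acid-labile subunit, and IGFBP3 is the main IGF carrier of the circulation. Igfbp3 had a level of 6.55 on the lacZ-labelled array and 6.21 on the Mef2d-labelled array, and was 1.27-fold lower on the latter. Its difference of -0.35 lay 1.89 robust SDs below the centre of its bin, and 362 of 11614 genes were at least as low. Igfbp5, whose protein also binds extracellular matrix, had levels of 8.67 and 8.78. It was 1.08-fold higher on the Mef2d-labelled array, and the difference of 0.12 was smaller than the robust SD of 0.16 at its level. These complex-forming members thus differed in opposite directions, the higher one by less than the scatter.

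IGFBP4 is known as an inhibitor of IGF action that the protease pappalysin-1 cuts to free the ligand. Igfbp4 had a level of 7.77 on the lacZ-labelled array and 7.50 on the other array. It was 1.20-fold lower on the Mef2d-labelled array (difference -0.27), which was 1.66 robust SDs below the centre of its bin, and 766 genes were at least as low. Among the 8 members it ranked behind Igf1 and Igfbp3 in the size of its difference. IGFBP6, which binds IGF2 in preference to IGF1, was encoded by a gene with levels of 8.06 and 7.98. The Igfbp6 difference of -0.08 lay 0.42 robust SDs below the centre of its bin, inside the scatter.

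IGFBP1 and IGFBP2 both carry an integrin-binding motif, and IGFBP1 is best known as a liver protein that insulin represses. Igfbp1 had levels of 4.91 on the lacZ-labelled array and 4.86 on the other. Its mean of 4.89 stood just inside the level filter of 4.85, and its difference was -0.05. This lay 0.04 robust SDs above the centre of its bin, so Igfbp1 was no lower than genes of its level. Igfbp2 had levels of 4.45 and 4.27, with a mean of 4.36, and was the 1 member that did not pass the filter. Its difference of -0.18 comes from a signal under the filter, and RMA gives no detection call.

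Igfbp7, at percentile 99.9 of named probe sets in brightness, had the smallest difference in size among the members. Its levels were 12.37 on the lacZ-labelled array and 12.39 on the Mef2d-labelled array, a difference of 0.02, where the robust SD was 0.11.

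In the reference gene table for GRCr8 Igfbp1 and Igfbp3 are next to each other among protein-coding genes of chromosome 14, and Igfbp2 and Igfbp5 are neighbours on chromosome 9. Within a pair the differences were -0.05 for Igfbp1 and -0.35 for Igfbp3, and -0.18 for Igfbp2 and 0.12 for Igfbp5. In bins of all named genes the robust SDs at these levels were 0.16 to 0.20. A gap within a pair holds the scatter of both genes, and whether the members of a pair differ was not tested. Of these genes Igfbp1 and Igfbp2 were at or under the level filter, so each pair sets a dim signal beside a brighter one.

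Because every member was read on the same arrays, the difference of each binding protein can be set against that of Igf1. Since Igf1 had the most negative value, the gap is above 0 for all 7 by construction, and only its size is a measurement. It was smallest for Igfbp3, at 0.08 on the log2 scale, followed by Igfbp4 at 0.16 and Igfbp2 at 0.25. The gaps of Igfbp3 and Igfbp4 were smaller than the robust SDs at the levels of these genes, 0.19 and 0.17. Each of these SDs is the scatter of 1 difference, whereas a gap also holds the scatter of Igf1, so the yardstick is too small for a gap. The gap was 0.35 for Igfbp6, 0.38 for Igfbp1 and 0.44 for Igfbp7. The gap was largest for Igfbp5, at 0.54, so that the signal ratio of Igfbp5 to Igf1 was 1.46 times as high on the Mef2d-labelled array as on the other. Free IGF1 protein was not measured.

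**Figure D3:**
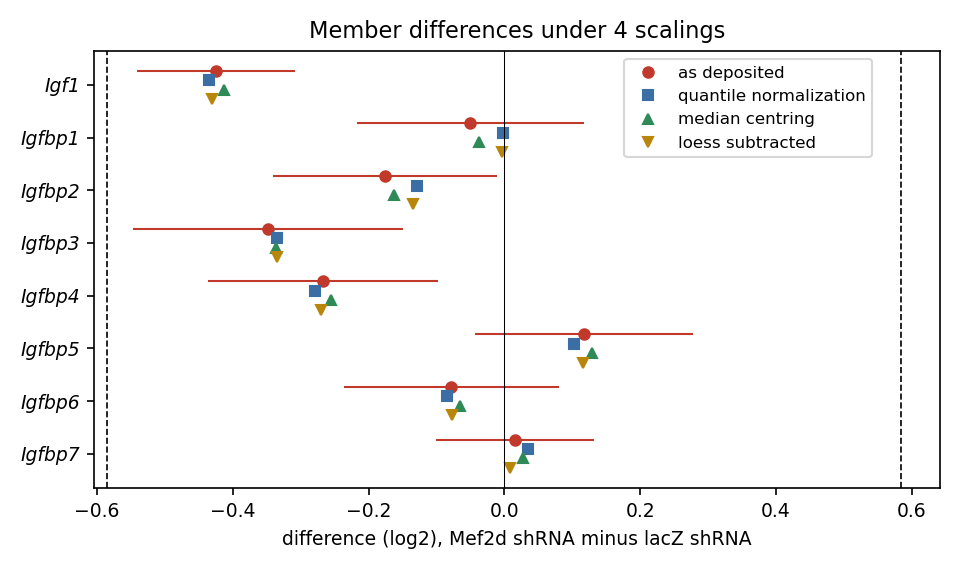
Difference of each member (horizontal axis, log2, Mef2d shRNA minus lacZ shRNA) with the values as deposited and after quantile normalization, median centring or subtraction of a loess curve; horizontal bars are 1 robust SD of all named genes of similar level, not a replicate error, and dashed lines mark 1.5-fold. Each member stays on the same side of 0 under the 4 scalings, with Igf1 between -0.44 and -0.41 and Igfbp1 between -0.05 and -0.002.

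The rest of the IGF system was described with 71 further genes listed by role, of which 63 were matched to a named probe set and 59 passed the level filter. None of the 59 was at least 1.5-fold higher or lower, beside 0.844% and 0.534% of all genes. Of these genes 29 had values above 0 and 30 below, with a median of -0.03 beside -0.01 over all genes past the filter. The members' wider system thus held no gene past the threshold either.

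Among ligands and receptors Igf2, the fetal growth ligand, had levels of 5.92 on the lacZ-labelled array and 5.84 on the other, a difference of -0.08. Igf1r, the signalling receptor of both IGFs, had levels of 9.61 and 9.68 (difference 0.07). Igf2r, the receptor that clears IGF2, had levels of 11.07 and 10.95 (difference -0.12). The insulin receptor gene Insr had levels of 8.47 and 8.65 (difference 0.17). Receptor differences were thus smaller in size than that of Igf1. The insulin genes, whose known site of expression is the pancreatic islet, had low signals, at most 5.32, and their differences were -0.33 for Ins1 and 0.30 for Ins2.

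Proteases and inhibitors that act on the binding proteins had a median difference of -0.12 over 5 genes, 3 of them below 0. Stc1, encoding stanniocalcin-1, a secreted inhibitor of pappalysins, had levels of 10.06 on the lacZ-labelled array and 9.63 on the Mef2d-labelled array. It was 1.35-fold lower on the latter, a difference of -0.43 that was the largest in size among the 59 genes. Stc2, its relative, had a difference of 0.23, in the opposite direction. Pappa, which encodes pappalysin-1, the protease of IGFBP4, had levels of 8.66 and 8.44 (difference -0.22). Adam12, a metalloprotease that cleaves IGFBP3 and IGFBP5, had a difference of 0.05. Igfbp4 and Pappa were both lower on the Mef2d-labelled array, by 1.20-fold and 1.16-fold. They lay 1.66 and 1.19 robust SDs below the centres of their bins, and a link between them was not tested.

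Secreted proteins related to the binding proteins included the acid-labile subunit gene Igfals, with a difference of -0.04 from a low signal. Of the CCN family of matrix-associated proteins, which share an IGFBP-like domain, Ccn4 (named Wisp1 in the annotation) had levels of 9.33 and 8.95, a difference of -0.38. Ccn5 (Wisp2) was 1.18-fold higher, with a difference of 0.24. Esm1, an endothelial proteoglycan with such a domain, had a difference of 0.14. The 8 genes of this list past the filter had a median of 0.01, with 6 above 0 and 2 below.

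**Figure D4:**
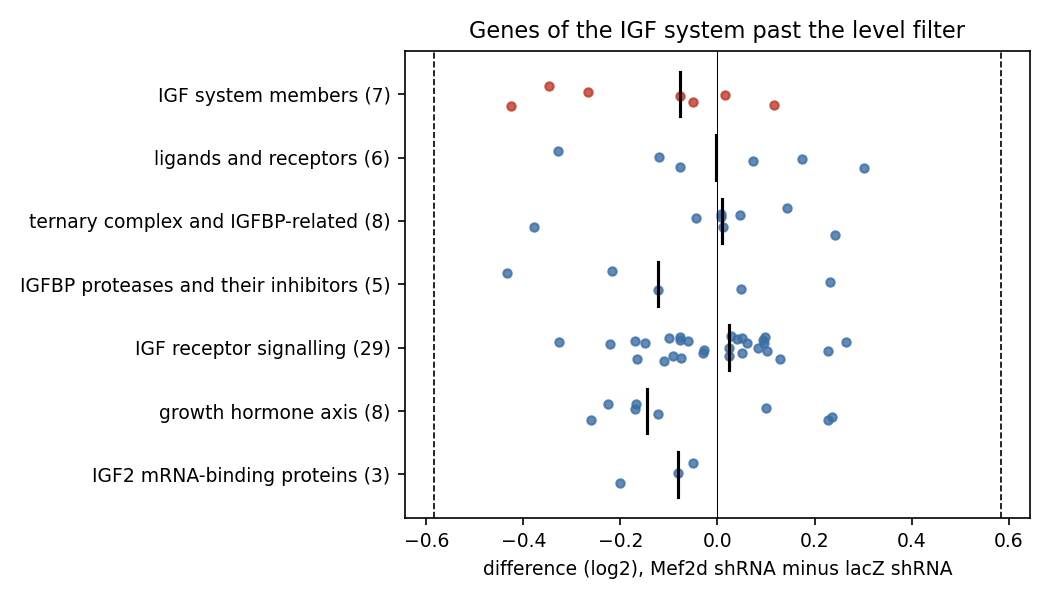
Differences (horizontal axis, log2, Mef2d shRNA minus lacZ shRNA) of the members (red) and of the other IGF system genes by role (blue), past the level filter, with the number of genes in parentheses; black bars are list medians, the vertical jitter has no meaning and dashed lines mark 1.5-fold. No point reaches a dashed line, and the lowest point among the members, Igf1 at -0.43, has its like in Stc1 at -0.43 among the proteases and inhibitors.

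Downstream of the receptors 29 signalling genes passed the filter, with 15 above 0, 14 below and a median of 0.02. The adaptor gene Grb2 had the largest negative value, at -0.33, and the PI3K subunit gene Pik3cb followed at -0.22. Foxo1, a transcription factor that AKT restrains, had the largest positive value, at 0.26, and Eif4ebp1, a translation repressor that mTOR inactivates, had a difference of 0.23. Growth hormone raises Igf1 transcription in liver through its receptor and STAT5. The 8 genes of that axis had a median of -0.15, with Ghr, the receptor, at 0.24. Among the feedback inhibitors of that axis Socs2 had a difference of 0.23, and Socs1, Socs3 and Cish had -0.26, -0.23 and -0.17. Each of them lay at most 1.44 robust SDs from the centre of its bin. All 3 genes of IGF2 mRNA-binding proteins were below 0, from -0.20 for Igf2bp3 to -0.05, with Igf2bp1 at -0.08.

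The genes with levels most like those of Igf1 on the 2 arrays were Cited2, Eif3b and Fabp3, by straight-line distance between the pairs of log2 levels. Cited2, a transcriptional co-regulator, had levels of 10.50 and 10.14 at a distance of 0.08. Eif3b, a translation initiation factor subunit, had levels of 10.50 and 10.21 at a distance of 0.10. Fabp3, which carries fatty acids in heart muscle, had levels of 10.47 and 10.18 at a distance of 0.11. Likeness over 2 arrays is a description and rests on level as much as on the difference. Each of these genes was lower on the Mef2d-labelled array by less than Igf1, with differences of -0.36 for Cited2, -0.29 for Eif3b and -0.29 for Fabp3.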

How the data were processed

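The values are log2 RMA values that the authors deposited, for which the submitters' processing notes name RMA (background correction, quantile normalization and probe set summary) and affy 1.36.1. No probe set definition or genome build is given in the sources used here. The table holds 19239 probe sets with medians of 6.29 (lacZ shRNA) and 6.28 (Mef2d shRNA). The platform annotation, which can be old, names 16592 of them by 1 symbol each, none by several, and leaves 2647 unnamed here. Of the 71 further IGF system symbols, 6 matched under an earlier name whose gene identifier was identical and 8 were not analysed here.

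Differences were computed without further normalization. RMA compresses differences of dim probe sets. The level filter, the 1.5-fold threshold and robust SDs in 20 bins are described with the results. The bins and threshold were also run on data simulated from the robust SDs of these same arrays. That run checks the code and says nothing about error between replicates. Alternatives were quantile normalization, median centring, a loess curve (fraction 0.3), other filters and other thresholds. Named genes were all members, Mef2d, Igf2, Igf1r, Igf2r, Insr, the 2 largest differences each way in each list, both ends of each marker list and the 3 genes most like the member with the largest difference. Tnnt2, Actn2 and Nppa were named in addition as examples. Col1a1 and Tcf21 were named for their levels, and Cish was added to the feedback inhibitors after its value was seen. The members and lists were chosen with earlier results of these data known. Python 3.11.15, pandas 2.3.3 and statsmodels 0.14.6 were used. Promoter windows came from RefSeq (GRCr8), where all 8 members matched by gene identifier.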

Additional observations from a re-analysis of the deposited data

How the results depend on the processing

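At a threshold of 1.3-fold 1 of 7 members (Igf1) and 1 of 59 further IGF system genes (Stc1) were lower and none higher. Of all genes past the filter 2.47% were as much lower and 3.51% as much higher, so counts this small are no result about these genes. Ccn4 was just short of that threshold. The other alternatives were quantile normalization, median centring, loess, no level filter, a filter at the median level (6.51), 2-fold and 3 robust SDs. Under them no member and no further IGF system gene was counted in either direction. Igf1 and Stc1 were just short of 3 robust SDs, at 2.93 and 2.99 below the centres of their bins. In bins of all named genes the robust SD at the level of Igf1 was 0.12 instead of 0.14. The count beyond 3 robust SDs was not repeated with those bins, so the place of Igf1 short of 3 holds only for the bins used. No member changed sign under the 3 other scalings, which moved members by at most 0.05 and the all-gene median by at most 0.01. Of the 63 further genes 2 changed sign under quantile normalization, Kazald1 and Ccn2 (Ctgf), both with differences of at most 0.008. Mef2d stayed between 0.71 and 0.73. Over all genes the 98 higher and 62 lower at 1.5-fold became 408 and 287 at 1.3-fold, 9 and 5 at 2-fold, and 178 and 81 beyond 3 robust SDs, and a median level filter left 74 and 30. With 1 array in each group there was no replicate to leave out. No paired analysis was possible because the groups share fewer than 2 replicate numbers. Low signal limits Igfbp1 and Igfbp2.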
